A study of Mus musculus with 8 samples.

Results

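The step from proestrus to estrus was examined in the uterus of cycling female ICR mice, an outbred stock, aged 6 to 8 weeks. The members are 4 of the 8 libraries of the series: 2 of uteri in estrus and 2 of uteri in proestrus, chosen by the stage in their labels. The animals carried no named allele and received no named treatment. Stage was read from stained vaginal smears, and the uterus was then excised. Polyadenylated RNA went into stranded libraries. The other 4 libraries, 2 of metestrus and 2 of diestrus, entered the fit for its estimate of spread, and their levels are given beside some genes without a test. Nothing in the labels says that 2 libraries of 1 stage are from different mice. A p-value here therefore refers to the spread among these samples alone, and that spread may be technical.

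In the rodent cycle, ovarian estrogen peaks in proestrus and the uterus swells and its epithelium proliferates. Ovulation and the fall of estrogen follow in the passage to estrus, when leukocytes enter the tissue and the matrix is remodelled. Estrogen and progesterone act through nuclear receptors, and much of their effect on the epithelium is relayed by growth factors of the stroma. In whole tissue, fewer cells of a type and less RNA per cell cannot be told apart.

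The deposited counts summed to 21391192 and 20102821 in the estrus libraries, against 21743652 and 21066223 in the proestrus libraries. Levels are in CPM, counts scaled to a common library size with TMM factors for composition. CPM does not correct for length, so levels are compared between libraries and not between genes. Changes are log2 fold changes of estrus over proestrus ± SE from edgeR's quasi-likelihood fit to all 8 libraries, with p adjusted over the 18114 genes tested and a threshold of 0.05. The 7 genes of uterine identity, among them Hoxa10, Hoxa11 and Esr1, summed to 780 and 777 CPM in estrus and to 1139 and 1146 CPM in proestrus, and all 7 were detected. Pgr, described below, is in that sum and was its 1 called gene, and the median log2 fold change of the list was 0.27. The 14 genes of vaginal and cervical epithelium summed to no more than 16.5 CPM in estrus and 23.6 CPM in proestrus.

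Transcripts typical of liver stood out before any test. The 16 genes of the liver list summed to 1126 and 869 CPM in estrus, against 159 CPM in proestrus library 1 and 3.08 CPM in proestrus library 2. In metestrus and diestrus the sum lay between 2.10 and 7.20 CPM. Alb, which encodes serum albumin, had 650 and 477 CPM in estrus and 82.7 and 0.943 CPM in proestrus, and its difference did not pass the test (adjusted p = 0.128). Of the genes that rose into estrus, 93 lay under 0.5 CPM in proestrus library 2 and in all 4 metestrus and diestrus libraries, as did 408 of all genes tested. With these 5 libraries so low, a gene passes the filter on low counts mainly through estrus, which largely fixes its direction. Of the fallers, 1 lay as low. The 93 include liver genes such as Cyp7a1, the rate-limiting enzyme of bile acid synthesis. Cyp7a1 had 1.85 and 0.878 CPM in estrus and 0 in both proestrus libraries. That call (adjusted p = 0.0371) ended without any estrus, proestrus or metestrus library (0.0587 to 0.175) and with the replicate block (0.0548). The part of liver RNA in the counts that follow was not tested.

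The step changed the levels of 2727 genes, 15.1% of those tested: 1470 were higher in estrus (8.12%) and 1257 lower (6.94%). The libraries of the stages did not overlap in any of these genes, nor in 67.5% of all genes tested. The log2 fold change of the median gene was 0.007, and 1022 of the risers and 556 of the fallers changed more than 2-fold. More than 8-fold changes were seen in 195 risers and 111 fallers.

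The counts depended on single libraries. Without proestrus library 2 there were 215 genes higher and 239 lower, without proestrus library 1 there were 411 and 317, without estrus library 1 there were 281 and 191, and without estrus library 2 there were 261 and 154. Without metestrus library 1 they were 720 and 554, without metestrus library 2 they were 730 and 558, and without diestrus library 1 or 2 they were 2342 and 2371 or 2322 and 2360. Calls that stood in all 8 of these fits numbered 163 higher (0.9%) and 114 lower (0.629%). The genes given below as the largest steps of their class are among these unless a lost call is stated beside them.

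**Figure D1:**
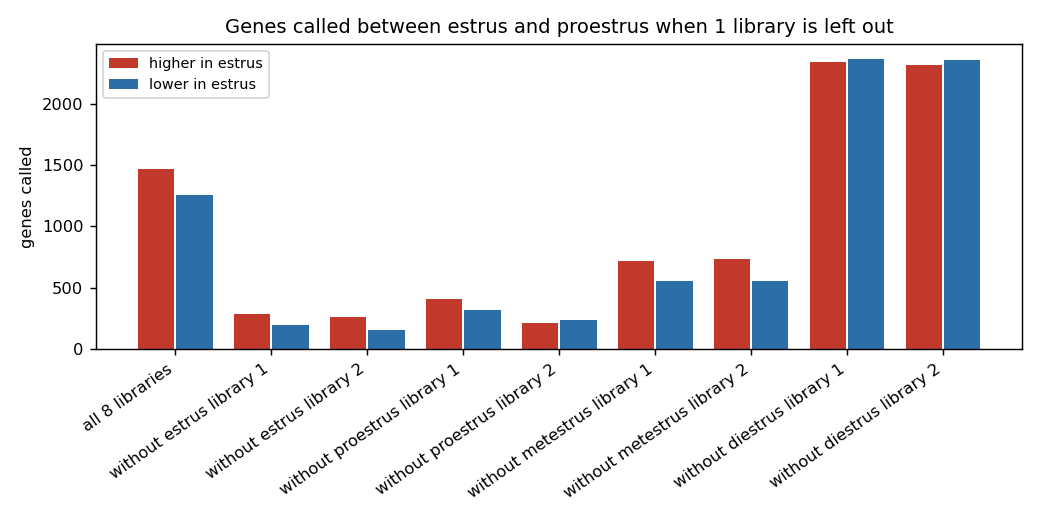
Genes called higher (red) and lower (blue) in estrus than in proestrus, with all 8 libraries and with 1 library left out of the fit in turn. The counts were 1470 and 1257 with all libraries, no more than 411 and 317 without an estrus or proestrus library, and at least 2322 and 2360 without a diestrus library.

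The genes were sorted by the kind of protein encoded. Each of the 7 classes but kinases and phosphatases held a larger share of risers than the 8.12% of all genes tested. Metabolic enzymes held a larger share of fallers than 6.94%, and ligands a slightly larger one. All genes tested include 3106 that are not protein coding, of which 3.93% rose and 1.8% fell. Protein-coding genes of no class had 7.66% risers and 8.15% fallers, and the faller share of ligands lay below the latter. Of 593 receptor genes tested, 111 rose (18.7%) and 41 fell (6.91%). Of 331 genes for proteases and their inhibitors, 49 rose (14.8%) and 21 fell (6.34%). Of 646 transporter and channel genes, 89 rose (13.8%) and 36 fell (5.57%), and of 291 genes for ligands and their secreted antagonists, 38 rose (13.1%) and 21 fell (7.22%). Among 998 metabolic enzymes, 113 rose (11.3%) and 135 fell (13.5%). Transcription factors had 86 risers (9.66%) and 44 fallers (4.94%) of 890, and kinases and phosphatases 42 (7.57%) and 31 (5.59%) of 555. The classes follow gene symbols, and the difference of a class from the other genes was not tested. Of the risers under 0.5 CPM in the 5 libraries named above, 16 were enzymes, 6 proteases or inhibitors, 5 transporters, and 3 each were transcription factors, receptors and ligands. When 1 library was left out, receptors higher in estrus ranged from 18 without proestrus library 2 to 155 without diestrus library 1, and enzymes lower in estrus ranged from 27 without estrus library 2 to 197 without diestrus library 1.

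**Figure D2:**
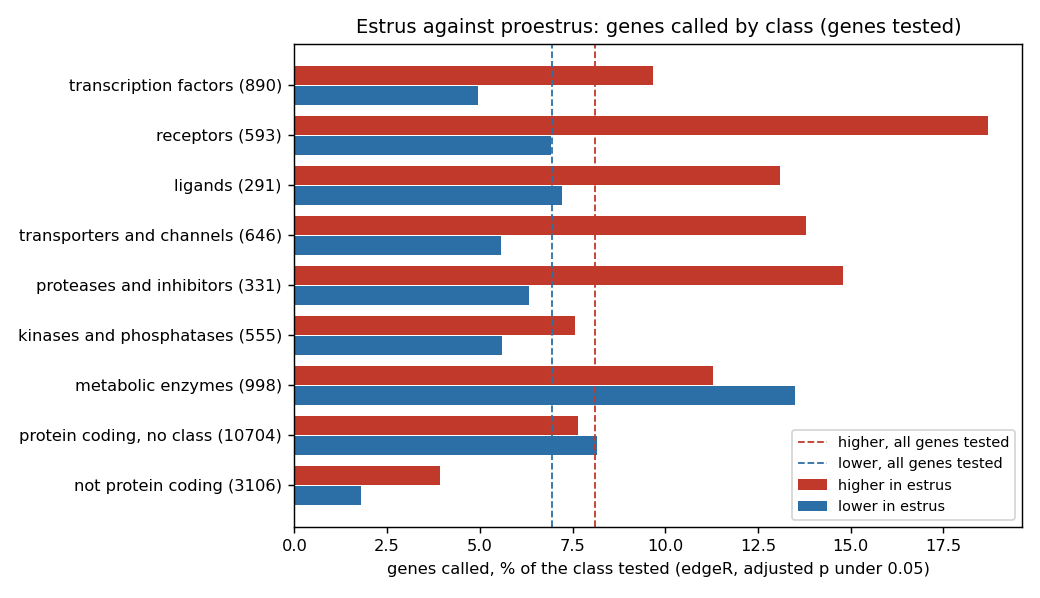
Share of the genes tested in each class that were called higher (red) or lower (blue) in estrus than in proestrus, with the shares of all genes tested as dashed lines (8.12% and 6.94%). Receptors had the highest share of risers, 18.7%, and metabolic enzymes the highest share of fallers, 13.5%.

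Among transcription factors, 9 genes were higher and 6 lower in estrus in every fit. Sox4, an HMG-box factor of progenitor cells, had 912 and 1168 CPM in estrus, against 159 and 144 CPM in proestrus, and metestrus and diestrus lay between 114 and 233 CPM. The estrus libraries thus stood above all 6 others, and the step was 2.78 ± 0.25 (adjusted p = 0.00312). Sox4 is on the minus strand of chromosome 13, from 28948919 to 28953713 (GRCm38). Mitf, the basic helix-loop-helix factor of melanocytes and osteoclasts that also drives lysosomal genes, had 97.6 and 113 CPM in estrus and 24.9 and 20.4 CPM in proestrus (2.22 ± 0.19, adjusted p = 0.00304). Arnt2, a dimerisation partner of bHLH-PAS factors, had 70.3 and 72.0 CPM in estrus, against 10.6 and 16.5 CPM in proestrus. Its metestrus and diestrus libraries held 44.5 to 75.8 CPM, so proestrus was the low stage for Arnt2 and estrus was no peak. Atoh8, another bHLH factor, rose by 1.80 ± 0.21 and Satb1, a chromatin organiser known from T cells, by 1.59 ± 0.18.

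The factors that fell have roles in hormone response, epithelium and mesenchyme. Pgr, the progesterone receptor, had 69.0 and 60.7 CPM in estrus, against 385 and 337 CPM in proestrus (-2.48 ± 0.15, adjusted p = 0.00128), and its 4 metestrus and diestrus libraries held 196 to 481 CPM. Stat5a, which carries prolactin and cytokine signals, had 26.0 and 20.7 CPM in estrus and 92.4 and 70.6 CPM in proestrus. Ovol2, a zinc finger factor that maintains epithelial identity, had 5.40 and 4.08 CPM in estrus and 29.8 and 24.0 CPM in proestrus (-2.50 ± 0.24, adjusted p = 0.00361). Metestrus and diestrus were as low for Ovol2, at 2.82 to 3.60 CPM, whereas Pgr was lowest in estrus. Prrx2, a homeobox factor of mesenchyme, had 3.65 and 2.01 CPM in estrus and 34.7 and 27.6 CPM in proestrus, the largest fall of the class at -3.46 ± 0.31 (adjusted p = 0.00312). Srebf2, the regulator of sterol synthesis, had 118 and 91.3 CPM in estrus, against 274 and 243 CPM in proestrus (-1.31 ± 0.16).

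Smaller steps that also stood in every fit were seen in Meis2, Foxn3, Zfp346 and Zbtb38, which rose by 1.36, 1.21, 1.34 and 1.13, and in Jdp2, an AP-1 repressor, which fell by 1.29. These genes, and others outside the largest 5 of a class and the first 3 of a list, were picked after their values were seen. Egr1, an immediate-early gene, had 222 and 58.8 CPM in estrus and 12.5 and 14.9 CPM in proestrus (3.36 ± 0.62, adjusted p = 0.0199). Its call ended without proestrus library 1 (adjusted p = 0.0975) or 2 (0.107). Among genes of the circadian clock picked in this way, Per1, a clock repressor, had 18.8 and 18.0 CPM in estrus and 45.1 and 55.8 CPM in proestrus (-1.46 ± 0.20, adjusted p = 0.00905), and Nr1d1, the clock factor REV-ERB alpha, had 120 and 92.8 CPM in estrus and 33.9 and 44.8 CPM in proestrus (1.43 ± 0.31, adjusted p = 0.0278). The Per1 call ended without proestrus library 2 or either estrus library (adjusted p = 0.0568 to 0.0676) and the Nr1d1 call without any estrus or proestrus library (0.0843 to 0.146). Per2, the relative of Per1, had 10.4 and 16.2 CPM in estrus and 35.5 and 36.7 CPM in proestrus (-1.44 ± 0.34, adjusted p = 0.0371), and ended without any estrus, proestrus or metestrus library (0.0685 to 0.180) and with the replicate block (0.0522). Rora, an activator of the clock, had 37.8 and 32.4 CPM in estrus and 12.2 and 11.7 CPM in proestrus (1.56 ± 0.28, adjusted p = 0.0174), and its call stood in 4 of the 8 fits that leave out a library. The hour of collection is not given in the sources used here.

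Among receptors, 17 genes were higher and 8 lower in every fit. Gpr176, an orphan receptor of the circadian clock, had 10.4 and 12.9 CPM in estrus, against 0.256 and 0.298 CPM in proestrus. Metestrus and diestrus held 1.36 to 2.28 CPM, between the 2 stages, and the step was 5.36 ± 0.32 (adjusted p = 0.00128). Gpr176 spans 118277110 to 118373419 on the minus strand of chromosome 2. Vipr2, a receptor of the neuropeptides VIP and PACAP, had 8.90 and 7.18 CPM in estrus and 0.564 and 1.04 CPM in proestrus (3.31 ± 0.41, adjusted p = 0.00659). The Vip gene itself had no count in any library, and Adcyap1, which encodes PACAP, had 1.80 and 1.03 CPM in estrus and 2.10 and 1.19 CPM in proestrus (adjusted p = 0.834). Cxcr4, a chemokine receptor, had 38.7 and 43.4 CPM in estrus, against 6.77 and 7.15 CPM in proestrus (2.56 ± 0.14, adjusted p = 0.00128). The gene of its ligand, Cxcl12, had 262 and 303 CPM in estrus and 210 and 198 CPM in proestrus, a difference of 0.47 ± 0.28 that did not pass the test (adjusted p = 0.280). P2rx6, a subunit of ATP-gated channels, had 42.3 and 42.2 CPM in estrus and 9.85 and 7.79 CPM in proestrus (2.26 ± 0.16).

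Several risers are receptors of macrophages and other leukocytes. Csf1r, the receptor on which macrophages depend, had 221 and 280 CPM in estrus, against 68.6 and 41.2 CPM in proestrus (2.19 ± 0.25, adjusted p = 0.00545). Its ligand genes did not pass the test: Il34 had 8.80 and 8.47 CPM in estrus and 2.15 and 3.97 CPM in proestrus (adjusted p = 0.0677), and Csf1 had 59.3 and 37.5 CPM in estrus and 79.8 and 51.4 CPM in proestrus (adjusted p = 0.594). Gpr34 rose by 2.19, Il10ra by 1.93, Itgax by 1.92, Adgre1 by 1.95, Tnfrsf1b by 1.17 and P2rx4 by 1.10. Beside them, the 15 macrophage markers, a list that includes Csf1r and Adgre1, summed to 2671 and 2784 CPM in estrus and 1352 and 862 CPM in proestrus. Their part in the rise of the receptors was not tested. Tnfrsf11b, the decoy receptor osteoprotegerin, had 18.9 and 25.0 CPM in estrus and 5.28 and 4.86 CPM in proestrus, and Ifnlr1, the receptor of lambda interferons, had 33.3 and 30.6 CPM in estrus and 11 and 9.83 CPM in proestrus.

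Ngfr, the neurotrophin receptor p75, had 7.05 and 2.99 CPM in estrus, against 591 and 661 CPM in proestrus (-6.96 ± 0.49, adjusted p = 0.00186). It lies on chromosome 11, 95568818 to 95587735, minus strand, and its metestrus and diestrus libraries held 97.7 to 465 CPM. Lgr6, a receptor of R-spondins, had 6.60 and 5.21 CPM in estrus and 149 and 125 CPM in proestrus (-4.53 ± 0.47, adjusted p = 0.00422). P2ry14, the receptor of UDP-glucose, had 29.4 and 19.0 CPM in estrus and 231 and 268 CPM in proestrus (-3.36 ± 0.38, adjusted p = 0.00532). For Ngfr and Lgr6 estrus was the lowest stage in every library, whereas P2ry14 was lower still in diestrus, at 8.73 and 16.4 CPM. Gpr83, a G protein-coupled receptor, had 0.450 and 0.413 CPM in estrus and 49.4 and 25.2 CPM in proestrus, and Gpr27, an orphan receptor, had 10.4 and 15.7 CPM in estrus and 38.7 and 41.6 CPM in proestrus.

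Some receptors of the same family, and some modifying proteins of the same receptor, moved in opposite directions. Il17rd, a member of the interleukin 17 receptor family, had 72.8 and 69.5 CPM in estrus and 24.5 and 25.1 CPM in proestrus (1.52 ± 0.16), while Il17ra had 48.4 and 39.5 CPM in estrus and 115 and 106 CPM in proestrus (-1.33 ± 0.16). Both calls stood in every fit. Of the angiotensin receptors, Agtr1a had 39.3 and 31.0 CPM in estrus and 9.38 and 7.25 CPM in proestrus (2.08 ± 0.40, adjusted p = 0.0216), and Agtr2 had 7.80 and 4.03 CPM in estrus and 47.9 and 27.8 CPM in proestrus (-2.68 ± 0.42, adjusted p = 0.0126). The Agtr1a call ended without any estrus or proestrus library (adjusted p = 0.0777 to 0.125), and the Agtr2 call without proestrus library 1 (0.0518) or estrus library 2 (0.0701). Of the receptor activity-modifying proteins, which give the calcitonin receptor-like receptor its specificity, Ramp3 had 34.4 and 26.2 CPM in estrus, against 323 and 338 CPM in proestrus (-3.45 ± 0.42, adjusted p = 0.00632). Ramp2 had 54.3 and 45.2 CPM in estrus and 122 and 231 CPM in proestrus (-1.83 ± 0.33), while Ramp1 had 47.1 and 45.9 CPM in estrus and 13.5 and 14.3 CPM in proestrus (1.74 ± 0.27). The gene of the receptor itself, Calcrl, had 34.1 and 28.3 CPM in estrus and 33.5 and 37.1 CPM in proestrus (-0.18 ± 0.19, adjusted p = 0.550). The Ramp3 call ended without estrus library 2 (adjusted p = 0.0587), the Ramp2 call without proestrus library 2 or either estrus library (0.0647 to 0.108), and the Ramp1 call without any estrus or proestrus library (0.0632 to 0.0729).

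Among ligands, 8 genes were higher and 6 lower in every fit. Ccn3, a matricellular protein, had 215 and 381 CPM in estrus, against 13.2 and 10.02 CPM in proestrus, and 8.94 to 14.9 CPM in metestrus and diestrus (4.68 ± 0.34, adjusted p = 0.00194). Its relative Ccn2 had 118 and 92.3 CPM in estrus and 21.6 and 21.8 CPM in proestrus (2.28 ± 0.16, adjusted p = 0.00193). For both genes the estrus libraries stood above all others. Angptl2, an angiopoietin-like protein, had 467 and 464 CPM in estrus and 127 and 108 CPM in proestrus (1.98 ± 0.17, adjusted p = 0.00294). Rspo3, a R-spondin that strengthens Wnt signals, had 161 and 138 CPM in estrus and 16.8 and 24.4 CPM in proestrus, the opposite direction to the R-spondin receptor gene Lgr6. Wnt2 had 5.80 and 7.54 CPM in estrus and 0.462 and 0.844 CPM in proestrus. Pros1, which encodes the anticoagulant protein S, Nbl1, a BMP antagonist, and Vegfb, an endothelial growth factor, rose by 1.72, 1.71 and 1.25.

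Nppc, the gene of C-type natriuretic peptide, had 0.300 and 0.0516 CPM in estrus, against 26.5 and 21.5 CPM in proestrus (-7.03 ± 0.65, adjusted p = 0.00330). The gene (chromosome 1, 86666291 to 86670571, minus strand) held 0.656 to 4.38 CPM in metestrus and diestrus, so its high level was seen in proestrus. Igf1, insulin-like growth factor I, had 44.3 and 47.5 CPM in estrus and 415 and 400 CPM in proestrus (-3.15 ± 0.19, adjusted p = 0.00128). In contrast to Nppc it held 443 to 611 CPM in metestrus and diestrus, so estrus was the low stage. Angpt4, a ligand of the vascular receptor Tie2, had 0.800 and 1.08 CPM in estrus and 9.74 and 6.65 CPM in proestrus. Fgf2, a fibroblast growth factor, had 14.0 and 14.7 CPM in estrus and 44.2 and 43.0 CPM in proestrus (-1.61 ± 0.14, adjusted p = 0.00312), and Fstl3, which binds activins, had 2.10 and 2.07 CPM in estrus and 9.28 and 7.69 CPM in proestrus.

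**Figure D3:**
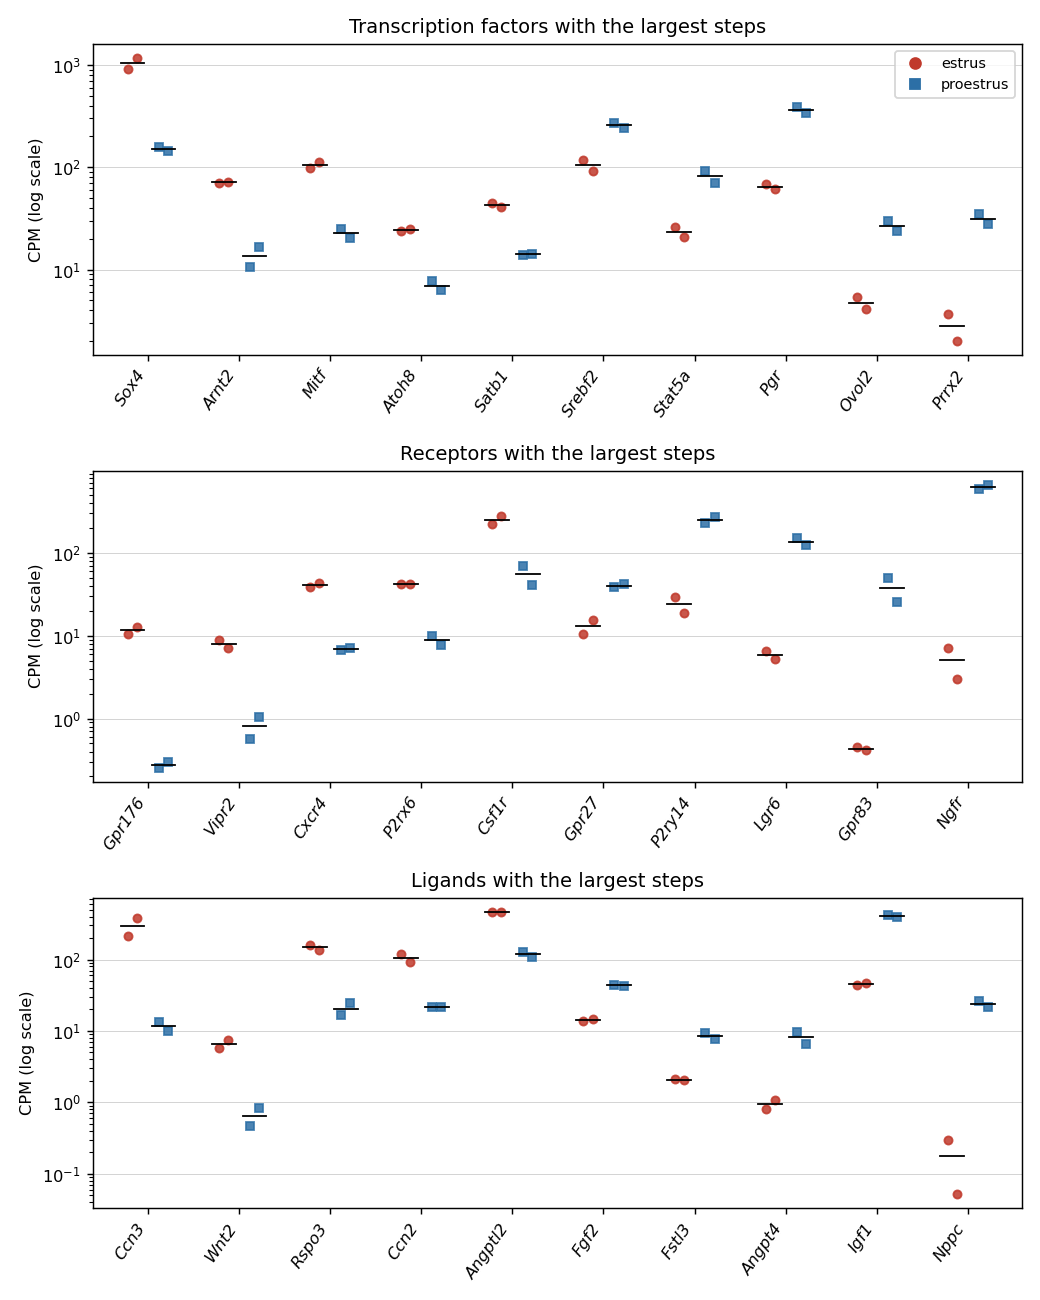
Level in each library (CPM, log scale) of the transcription factors, receptors and ligands with the largest steps, estrus as red circles left of proestrus as blue squares, with a bar at the mean of the 2 libraries. The libraries of the stages do not overlap in any gene shown, and the widest gaps are in Nppc, at 0.300 and 0.0516 CPM in estrus against 26.5 and 21.5 CPM in proestrus, and in Ngfr.

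Genes of the same signalling systems were then followed through lists of their members. Of 8 tested genes of natriuretic peptide signalling, 2 rose and 1, Nppc, fell, beside 8.12% and 6.94% of all genes tested. Npr1, the receptor of the atrial and brain peptides, had 109 and 93.8 CPM in estrus and 42.0 and 34.1 CPM in proestrus (1.41 ± 0.15, adjusted p = 0.00442). Npr2, the receptor of C-type peptide, had 112 and 103 CPM in estrus and 141 and 116 CPM in proestrus (-0.26 ± 0.14, adjusted p = 0.232), and the clearance receptor Npr3 had 28.1 and 22.6 CPM in estrus and 20.1 and 12 CPM in proestrus (adjusted p = 0.239). Npr1 and Npr2 signal through cyclic GMP. Pde5a, the phosphodiesterase that degrades it, had 281 and 299 CPM in estrus and 45.5 and 50.9 CPM in proestrus (2.59 ± 0.23, adjusted p = 0.00312). Prkg1, the kinase it activates, had 51.1 and 46.7 CPM in estrus and 24.5 and 23.9 CPM in proestrus (1.02 ± 0.15, adjusted p = 0.0115), and its call ended without any estrus or proestrus library (0.0598 to 0.0751). Pde5a and Prkg1 are also genes of smooth muscle, and the 16 smooth muscle markers summed to 15440 and 13400 CPM in estrus and 16620 and 12410 CPM in proestrus.

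In the insulin-like growth factor list, 5 of 13 tested genes rose and 2 fell, with a median log2 fold change of 0.18, beside 8.12% and 6.94% of all genes tested and a median of 0.007. The risers numbered 1 without any single estrus or proestrus library and 2 without either metestrus library, and the fallers 1 without estrus library 1. While Igf1 fell, the receptor gene Igf1r had 142 and 122 CPM in estrus and 59.5 and 40.6 CPM in proestrus (1.40 ± 0.34, adjusted p = 0.0401). Igf2r, which clears insulin-like growth factor II, had 306 and 304 CPM in estrus and 104 and 108 CPM in proestrus (1.53 ± 0.11, adjusted p = 0.00193). The adaptors of these receptors moved apart: Irs2 had 53.8 and 45.8 CPM in estrus, against 5.33 and 5.11 CPM in proestrus (3.25 ± 0.50, adjusted p = 0.0115), and Irs1 had 21.5 and 23.5 CPM in estrus, against 47.3 and 40.2 CPM in proestrus (-0.96 ± 0.12, adjusted p = 0.00670). Pik3ip1, an inhibitor of the PI3 kinase that acts below them, had 110 and 114 CPM in estrus and 16.7 and 15.4 CPM in proestrus (2.80 ± 0.24, adjusted p = 0.00312). The Irs2 call ended without any estrus or proestrus library (adjusted p = 0.0565 to 0.0814), the Irs1 call without estrus library 1 (0.0549), and the Igf1r call without any library of estrus, proestrus or metestrus (0.0808 to 0.190).

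Of 19 neurotrophin and related genes, 1 rose and 4 fell, Ngfr among them, beside 8.12% and 6.94% of all genes tested. The riser, Sorcs2, was lost without any estrus or proestrus library, and the fallers numbered 1 without either estrus library. Nrtn, the ligand neurturin, had 8.50 and 8.00 CPM in estrus and 35.5 and 25.8 CPM in proestrus (-1.89 ± 0.24, adjusted p = 0.00670), a call that ended without estrus library 1 (0.0525) or 2 (0.0578). Sorcs3, a sortilin-related receptor, was at 0 in both estrus libraries and at 0.462 and 0.744 CPM in proestrus (adjusted p = 0.0132). That call ended without proestrus library 2 or either estrus library (0.0628 to 0.0676). Ntrk2, the receptor of brain-derived neurotrophic factor, had 112 and 66.0 CPM in estrus and 122 and 148 CPM in proestrus and did not pass the test (adjusted p = 0.166). Of 17 fibroblast growth factor genes, 1 rose and 4 fell, and of 36 BMP and activin genes, 2 rose and 7 fell. The fibroblast growth factor fallers numbered 1 or 2 without an estrus or proestrus library and 7 without either diestrus library. The BMP and activin fallers numbered 1 to 3 without an estrus or proestrus library, 4 without either metestrus library and 12 without either diestrus library. Fgf12 fell by 2.56, Spry4, a feedback inhibitor, by 1.30 and Bmp3 by 1.91. Bmpr1b, a BMP receptor, rose by 2.21 ± 0.39. These calls were lost without some estrus or proestrus libraries: Fgf12 without proestrus library 1 (adjusted p = 0.0513) or estrus library 1 (0.0674), Bmp3 without proestrus library 2 (0.0581) or estrus library 2 (0.0578), Bmpr1b without either proestrus library or estrus library 2 (0.0802 to 0.0955), and Spry4 without any of the 4 (0.0526 to 0.0886). No gene of 11 in the EGF family passed the test in either direction.

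Of 46 guidance cues and their receptors 9 were higher and 4 lower, beside 8.12% and 6.94% of all genes tested. Without proestrus library 1 the counts were 1 and 2, without proestrus library 2 they were 0 and 2, without either estrus library 2 and 2, without either metestrus library 3 and 3, and without either diestrus library 13 and 6. Sema3a, a repellent of axons and vessels, had 44.4 and 45.6 CPM in estrus and 104 and 90.4 CPM in proestrus (-1.11 ± 0.12, adjusted p = 0.00458), and its receptor gene Nrp1 had 50.1 and 45.2 CPM in estrus and 102 and 92.0 CPM in proestrus (-1.02 ± 0.12, adjusted p = 0.00532). Nrp2, the relative of Nrp1, had 145 and 148 CPM in estrus and 85.8 and 81.5 CPM in proestrus (0.81 ± 0.09, adjusted p = 0.00534), a call that ended without proestrus library 2 (0.0528). In the hedgehog list 2 of 14 genes fell and none rose. Both are targets of the pathway: Hhip had 0.150 and 0.413 CPM in estrus and 13.1 and 11.1 CPM in proestrus (adjusted p = 0.0386), and Gli1 had 2.85 and 0.929 CPM in estrus and 10.2 and 18.1 CPM in proestrus (adjusted p = 0.0455). Both calls ended without any estrus, proestrus or metestrus library, at 0.0759 to 0.204 for Hhip and 0.0826 to 0.185 for Gli1, and with limma-voom (0.122 and 0.148). The Gli1 call also ended with the replicate block (0.0609).

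Transporters and channels had 10 risers and 1 faller in every fit. Clca3b, a secreted regulator of chloride channels, had 38.9 and 34.95 CPM in estrus, against 1.95 and 0.844 CPM in proestrus and no more than 0.625 CPM in metestrus and diestrus (4.72 ± 0.59, adjusted p = 0.00670). Reads of Clca3b may be shared with its close paralogs. Of the potassium leak channels, Kcnk2 had 89.3 and 94.8 CPM in estrus and 17.3 and 14.9 CPM in proestrus (2.51 ± 0.24, adjusted p = 0.00361), and Kcnk3 had 31.7 and 31.2 CPM in estrus and 5.38 and 5.56 CPM in proestrus (2.52 ± 0.15, adjusted p = 0.00128). Kcnk2 lay at 2.91 to 5.89 CPM in metestrus and diestrus, below proestrus, whereas Kcnk3 lay above it at 11.4 to 13.9 CPM. Hvcn1, the voltage-gated proton channel of leukocytes, had 10.5 and 12.2 CPM in estrus and 1.38 and 1.24 CPM in proestrus (3.11 ± 0.26). Slc2a10, a glucose transporter, had 4.0 and 2.84 CPM in estrus and 15.0 and 14.4 CPM in proestrus (-2.10 ± 0.22, adjusted p = 0.00422). Slc22a3, a carrier of organic cations and monoamines, rose by 2.08, the sodium and calcium exchanger Slc24a3 by 2.04, the fatty acid transporter Slc27a1 by 1.65 and the lysosomal sialic acid carrier Slc17a5 by 1.07.

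Of the genes that handle cholesterol, Abca1, Npc1 and Cyp27a1 were picked after their values were seen. Abcg1, which exports sterol to lipoproteins, had 58.1 and 68.3 CPM in estrus and 10.5 and 11.5 CPM in proestrus (2.52 ± 0.17, adjusted p = 0.00173). Abca1, the other main exporter, had 325 and 403 CPM in estrus, against 65.3 and 63.0 CPM in proestrus (2.50 ± 0.32, adjusted p = 0.00747), and Npc1, which moves cholesterol out of lysosomes, had 76.1 and 73.5 CPM in estrus, against 42.2 and 36.1 CPM in proestrus (0.93 ± 0.12, adjusted p = 0.00670). Srebf2 fell as given above. Without proestrus library 2 the calls of Abca1 (adjusted p = 0.0594) and Npc1 (0.0514) ended. Cyp27a1, which oxidises cholesterol, rose by 1.55. Diestrus was a second high stage for Abca1, at 248 and 122 CPM, and for Cyp27a1, at 78.8 and 67.3 CPM.

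The class of proteases and inhibitors, formed by symbol, had 7 risers and no faller in every fit. Trabd2b, a protease that the symbols leave outside the class, fell and is given below. Mmp11, stromelysin 3, had 1143 and 1377 CPM in estrus, against 46.7 and 49.3 CPM in proestrus, and Mmp3 had 56.3 and 60.7 CPM in estrus, against 0.769 and 2.63 CPM in proestrus. Adamdec1, a disintegrin metalloprotease, had 26.4 and 20.8 CPM in estrus and 2.05 and 2.98 CPM in proestrus (3.23 ± 0.28, adjusted p = 0.00312). Mmp11 was high only in estrus among the 8 libraries, where metestrus and diestrus held 23.9 to 53.8 CPM, but Mmp3 kept 28.3 and 29.7 CPM in diestrus. Mmp9, a gelatinase, had 68.4 and 65.7 CPM in estrus and 8.72 and 8.73 CPM in proestrus, Adamts5, an aggrecanase, had 80.9 and 97.5 CPM in estrus and 20.9 and 28.7 CPM in proestrus, and Mmp2, the other gelatinase, rose by 1.12 ± 0.13. Of the serine protease inhibitors, Serpina1b had 39.4 and 33.1 CPM in estrus and 4.82 and 0.943 CPM in proestrus. It is a liver gene with near-identical copies, and its call (adjusted p = 0.0217) ended without either estrus or either metestrus library (0.0526 to 0.101).

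The class of kinases and phosphatases, formed by symbol, had 1 riser and 4 fallers in every fit. The riser, Pik3ip1, is the kinase inhibitor given above and is itself neither a kinase nor a phosphatase. Ptpn5, a tyrosine phosphatase known from striatal neurons, had 2.05 and 1.96 CPM in estrus, against 143 and 166 CPM in proestrus (-6.26 ± 0.46, adjusted p = 0.00201). Dclk1, a doublecortin-like kinase, had 13.1 and 15.5 CPM in estrus, against 149 and 129 CPM in proestrus (-3.28 ± 0.21, adjusted p = 0.00173). Ppp2r2c, a regulatory subunit of protein phosphatase 2A, had 1.05 and 1.34 CPM in estrus, against 21.8 and 24.0 CPM in proestrus (-4.25 ± 0.18, adjusted p = 0.000845), and Nrk, a STE20-type kinase, had 1.00 and 0.413 CPM in estrus, against 43.4 and 43.3 CPM in proestrus. All 4 were lower in the estrus libraries than in any other library of the series. Metestrus was as high as proestrus for Ptpn5, at 190 and 128 CPM, and higher for Ppp2r2c, at 42.4 and 43.5 CPM.

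Metabolic enzymes had 12 risers and 24 fallers in every fit. Elovl3, a fatty acid elongase, had 20.9 and 46.1 CPM in estrus, against 0.205 and 0.199 CPM in proestrus and no more than 0.180 CPM in metestrus and diestrus. Bdh2, a dehydrogenase of short hydroxy acids, had 33.4 and 36.1 CPM in estrus and 2.31 and 2.83 CPM in proestrus (3.75 ± 0.20, adjusted p = 0.00128). Sord, sorbitol dehydrogenase, had 87.7 and 76.1 CPM in estrus and 18.0 and 18.2 CPM in proestrus (2.18 ± 0.12, adjusted p = 0.00128). The thioesterase Acot1, whose reads may be shared with its close paralogs, had 84.0 and 73.5 CPM in estrus and 10.5 and 18.7 CPM in proestrus (2.43 ± 0.30). Ldhb, a lactate dehydrogenase subunit, had 201 and 209 CPM in estrus, against 54.2 and 57.3 CPM in proestrus (1.88 ± 0.16), and 151 to 236 CPM in metestrus and diestrus, so proestrus was its low stage.

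Hsd11b2, the enzyme that inactivates glucocorticoids, had 26.1 and 18.3 CPM in estrus, against 576 and 788 CPM in proestrus (-4.94 ± 0.29, adjusted p = 0.00128). It lies on the plus strand of chromosome 8, from 105518755 to 105523988, and held 529 to 771 CPM in metestrus and diestrus. Estrus was thus the low stage for Hsd11b2, as it was for Igf1. Has2, a hyaluronan synthase, had 0.150 and 0.103 CPM in estrus and 9.02 and 6.15 CPM in proestrus. Bcat1, a branched-chain aminotransferase, had 228 and 255 CPM in estrus, against 1094 and 1015 CPM in proestrus (-2.13 ± 0.12, adjusted p = 0.00128), with metestrus and diestrus at 310 to 370 CPM. Plod2, a lysyl hydroxylase of collagen, had 61.4 and 70.4 CPM in estrus and 232 and 262 CPM in proestrus (-1.91 ± 0.12). Also lower were Sod3, the extracellular superoxide dismutase, by a fall of 2.58, Lipg, endothelial lipase, by 2.43, G6pdx, the entry enzyme of the pentose phosphate pathway, by 1.29, and Aldh18a1, the first enzyme of proline synthesis, by 1.12.

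Enzymes that act on retinoids were among the largest falls of the class. Retinol is oxidised in sequence by alcohol or retinol dehydrogenases and by retinaldehyde dehydrogenases to retinoic acid, the ligand of nuclear receptors. Aldh1a2, of the second step, had 86.3 and 87.5 CPM in estrus, against 813 and 750 CPM in proestrus (-3.17 ± 0.15, adjusted p = 0.00128), and lies on chromosome 9 from 71215789 to 71296243, plus strand. Adh1, of the first step, had 102 and 75.9 CPM in estrus, against 616 and 647 CPM in proestrus (-2.82 ± 0.25, adjusted p = 0.00312), and Adh7 had 1.30 and 2.22 CPM in estrus, against 12.7 and 13.1 CPM in proestrus (-2.87 ± 0.35, adjusted p = 0.00632). Proestrus was the high stage for all 3 genes, since metestrus and diestrus held 145 to 251 CPM of Aldh1a2, 88.2 to 187 CPM of Adh1 and 2.52 to 6.07 CPM of Adh7.

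Further retinoid genes were looked up because these enzymes fell, so their direction is a description. Crabp1, a binding protein of retinoic acid, had 1.00 and 0.671 CPM in estrus, against 34.97 and 38.5 CPM in proestrus, and Crabp2 had 12 and 5.06 CPM in estrus, against 84.4 and 64.0 CPM in proestrus. Dhrs9, a retinol dehydrogenase, had 52.2 and 53.3 CPM in estrus and 192 and 166 CPM in proestrus, and the receptor gene Rara had 67.5 and 63.9 CPM in estrus and 131 and 114 CPM in proestrus. In the other direction, Rbp4, the carrier of retinol in blood, had 46.1 and 45.3 CPM in estrus and 9.44 and 5.51 CPM in proestrus (2.61 ± 0.30, adjusted p = 0.00550). Rbp4 is also a liver transcript. Dhrs3, which reduces retinaldehyde back to retinol, had 120 and 171 CPM in estrus and 58.5 and 48.8 CPM in proestrus (1.44 ± 0.22, adjusted p = 0.0114), and Aldh1a3 had 8.10 and 4.13 CPM in estrus and 1.38 and 0.744 CPM in proestrus (2.52 ± 0.45, adjusted p = 0.0169). Aldh1a1 had 44.1 and 39.7 CPM in estrus and 240 and 81.9 CPM in proestrus and did not pass the test (adjusted p = 0.0919). The Rbp4 call stood in every fit. Those of Crabp1 (0.0333), Crabp2 (0.0303) and Dhrs9 (0.0215) ended without any estrus, proestrus or metestrus library (adjusted p = 0.0502 to 0.169), and those of Rara, Dhrs3 and Aldh1a3 without 3 of the 4 estrus and proestrus libraries each (0.0509 to 0.0980): Rara kept its call without proestrus library 2, Dhrs3 without estrus library 1 and Aldh1a3 without estrus library 2.

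**Figure D4:**
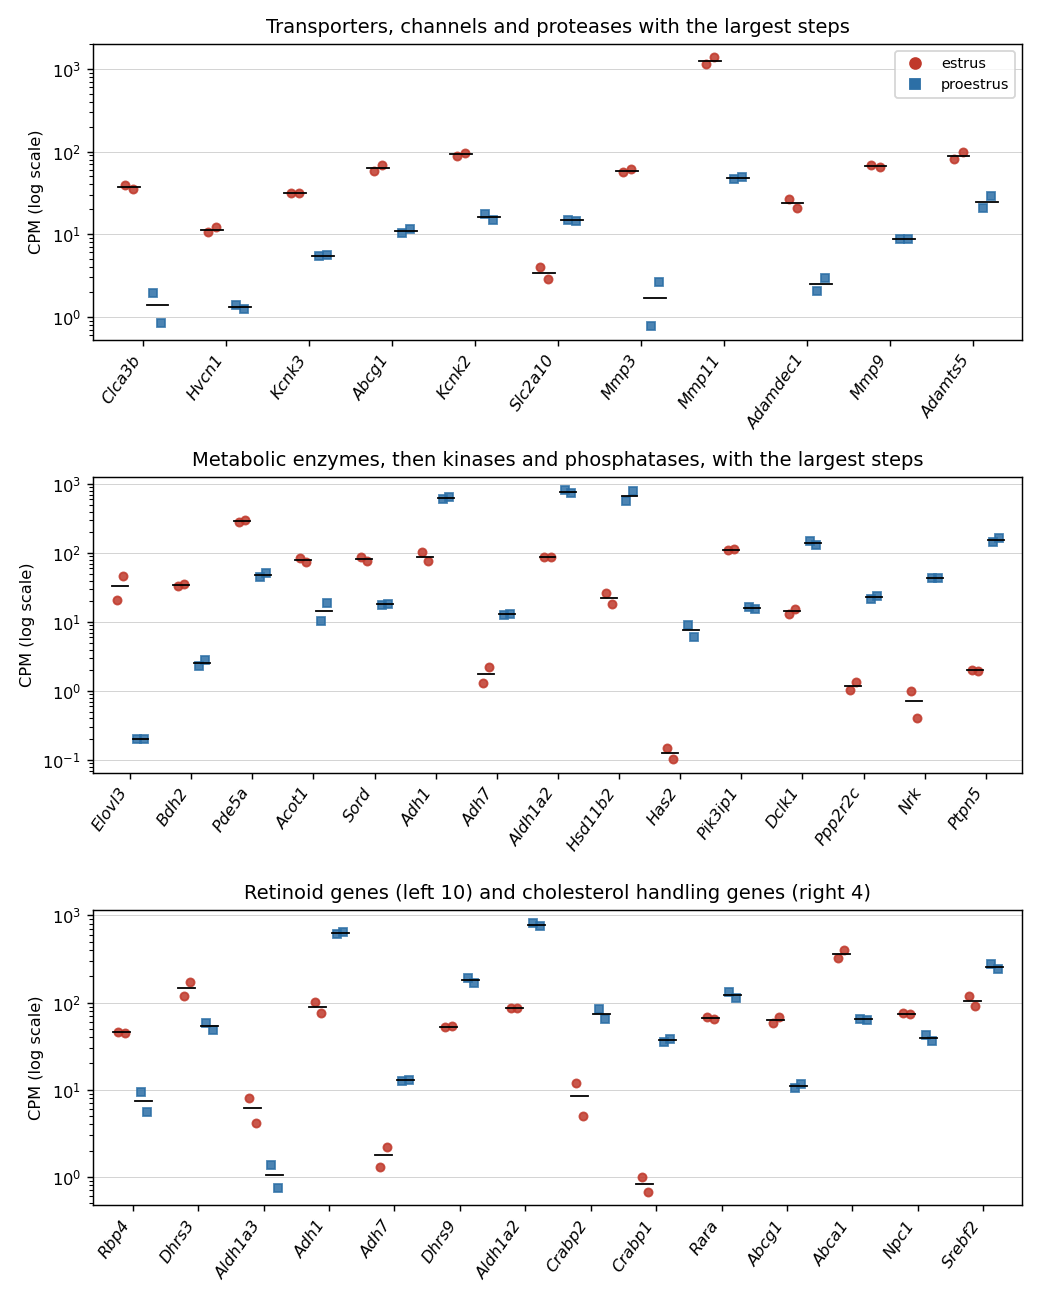
Level in each library (CPM, log scale) of the transporters, proteases, enzymes, kinases and phosphatases with the largest steps, and of retinoid and cholesterol handling genes, estrus as red circles left of proestrus as blue squares, with a bar at the mean of the 2 libraries. In the lowest panel Aldh1a2 and Adh1 lie about a decade lower in estrus, whereas Abcg1 and Abca1 lie higher.

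Protein-coding genes outside these classes had 95 risers and 61 fallers in every fit. Pamr1, a peptidase-domain protein of muscle regeneration, had 383 and 457 CPM in estrus, against 14.0 and 17.8 CPM in proestrus (4.73 ± 0.57, adjusted p = 0.00627). Gpnmb, a glycoprotein of melanosomes and lysosomes, had 111 and 157 CPM in estrus and 1.44 and 2.04 CPM in proestrus, and Trim63, a ubiquitin ligase of muscle wasting, had 32.5 and 39.3 CPM in estrus and 0.820 and 0.695 CPM in proestrus. Eef1a2 had 11.4 and 7.28 CPM in estrus and 0.154 and 0.0993 CPM in proestrus, and Stmnd1 had 10.3 and 15.9 CPM in estrus and 0.974 and 1.14 CPM in proestrus. Among the falls, Sdk1, an adhesion protein of the immunoglobulin family, had 16.9 and 14.4 CPM in estrus, against 200 and 169 CPM in proestrus (-3.56 ± 0.24, adjusted p = 0.00173), and Trabd2b, a membrane protease that inactivates Wnt proteins, had 6.05 and 6.71 CPM in estrus, against 111 and 83.5 CPM in proestrus (-3.93 ± 0.38, adjusted p = 0.00361). Minar1 and Phyhipl fell by 4.81 and 3.72.

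Of 31 tested genes for protein folding in the endoplasmic reticulum and its stress response, 16 fell and none rose, against 6.94% of all genes that fell. Their median log2 fold change was -0.66. Hspa5, the chaperone BiP, had 656 and 703 CPM in estrus, against 1714 and 1503 CPM in proestrus (-1.24 ± 0.28, adjusted p = 0.0327). Sec24d, a coat protein of transport vesicles, had 91.1 and 78.4 CPM in estrus, against 206 and 197 CPM in proestrus (-1.25 ± 0.12, adjusted p = 0.00384), and was the 1 member that fell in every fit. Calr and Canx, which fold glycoproteins, Hsp90b1, the chaperone of the lumen, and Creld2, a disulphide isomerase, fell by 0.73, 0.57, 0.71 and 1.37. Dnajb11, a cofactor of BiP, had 83.6 and 93.6 CPM in estrus and 151 and 142 CPM in proestrus, and Sec61b, a subunit of the translocation channel, had 76.6 and 73.5 CPM in estrus and 154 and 151 CPM in proestrus. The members lower in estrus numbered 2 without proestrus library 1, 1 without proestrus library 2, 2 without estrus library 1 or 2, and 6 without either metestrus library. The calls of Hspa5, Calr, Canx and Hsp90b1 ended without any estrus, proestrus or metestrus library (adjusted p = 0.0541 to 0.162), and those of Creld2, Dnajb11 and Sec61b without any estrus or proestrus library (0.0510 to 0.119).

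The element of CCAAT and CCACG with any 9 bases between them, through which factors of the stress response act on such genes, was searched on both strands in the 250 bases before each start that RefSeq lists (GRCm38.p6). It was found in 20 of 15753 promoters of genes tested (0.127%), in 8 of 1235 promoters of genes lower in estrus (0.648%) and in 2 of 1464 promoters of genes higher in estrus (0.137%). Of the 16 fallers of the folding list 13 had a promoter in the table and 5 of these held it, as did 3 of the 12 members with a promoter that did not pass the test. The 5 are Hspa5, Hsp90b1, Calr, Canx and Creld2, which are not among the 3 fallers of the list with the smallest p. The other fallers of the list with a promoter in the table did not hold the element. The 5 are printed because they hold it, 5′ to 3′ on the strand of the gene, with the element in capitals. None of these matches overlapped a match of 6 other motifs searched.
Hspa5 (chr2:34771840-34772089, plus strand): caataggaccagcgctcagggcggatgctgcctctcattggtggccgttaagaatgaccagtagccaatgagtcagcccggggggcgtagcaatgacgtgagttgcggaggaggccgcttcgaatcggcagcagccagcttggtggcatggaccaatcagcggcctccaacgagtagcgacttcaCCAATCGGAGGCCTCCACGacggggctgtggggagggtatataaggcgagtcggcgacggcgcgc
Hsp90b1 (chr10:86705445-86705694, minus strand): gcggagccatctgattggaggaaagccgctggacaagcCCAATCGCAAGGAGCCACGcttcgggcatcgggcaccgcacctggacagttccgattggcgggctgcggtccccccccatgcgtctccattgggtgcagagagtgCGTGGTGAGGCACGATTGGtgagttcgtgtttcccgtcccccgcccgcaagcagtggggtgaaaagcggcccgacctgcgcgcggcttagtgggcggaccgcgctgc
Calr (chr8:84846932-84847181, minus strand): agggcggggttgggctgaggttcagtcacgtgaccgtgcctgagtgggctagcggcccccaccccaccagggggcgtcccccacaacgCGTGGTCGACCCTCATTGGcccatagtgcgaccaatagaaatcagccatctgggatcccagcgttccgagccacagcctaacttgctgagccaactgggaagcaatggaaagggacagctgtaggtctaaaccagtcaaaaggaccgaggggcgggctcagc
Canx (chr11:50325674-50325923, minus strand): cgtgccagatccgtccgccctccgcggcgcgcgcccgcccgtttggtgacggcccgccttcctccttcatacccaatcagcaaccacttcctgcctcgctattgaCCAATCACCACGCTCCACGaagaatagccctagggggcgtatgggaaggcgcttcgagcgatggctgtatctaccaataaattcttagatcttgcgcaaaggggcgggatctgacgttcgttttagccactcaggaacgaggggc
Creld2 (chr15:88819396-88819645, plus strand): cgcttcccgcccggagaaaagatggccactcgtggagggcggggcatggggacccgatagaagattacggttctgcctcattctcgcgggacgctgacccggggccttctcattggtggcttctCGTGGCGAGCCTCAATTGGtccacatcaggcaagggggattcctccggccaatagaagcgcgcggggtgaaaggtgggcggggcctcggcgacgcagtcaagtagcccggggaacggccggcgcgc

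Hsp90b1 holds 2 matches, which begin 212 and 107 bases before the start, and the others 1 each, at 65 bases for Hspa5, 162 for Calr, 145 for Canx and 126 for Creld2. In Calr, Creld2 and the nearer match of Hsp90b1 the element reads on the opposite strand. A match is a description of the letters and not of a bound site. The other motifs had shares in the promoters of risers and fallers as follows, beside all promoters of genes tested. The sterol element TCACNCCAC was found in 1.09% of promoters of risers and 1.13% of fallers, beside 1.03%. The E-box TCACGTGA of Mitf and its relatives was found in 1.57% of risers and 0.972% of fallers, beside 1.33%. The AP-1 element TGANTCA was found in 7.79% of risers and 4.45% of fallers, beside 5.08%, and the cyclic AMP element TGACGTCA in 1.23% of risers and 2.75% of fallers, beside 2.32%. The palindrome of estrogen receptors (GGTCA and TGACC, 3 bases apart) was found in no promoter of the genes tested, and that of progesterone and glucocorticoid receptors (GNACA and TGTNC, 3 bases apart) in 0.137% of risers and 0.081% of fallers, beside 0.311%.

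The number of cell cycle genes that passed the test depended on the setting. Of 36 mitosis genes 7 fell and none rose, with a median of -2.46, and of 38 DNA replication genes 2 fell and none rose, with a median of -1.08, beside 6.94% of all genes tested that fell and a median of 0.007. Mad2l1, of the spindle checkpoint, had 10.9 and 8.78 CPM in estrus, against 53.2 and 69.7 CPM in proestrus (-2.64 ± 0.46, adjusted p = 0.0165), and ended without any estrus or proestrus library (0.0515 to 0.106). The replication fallers numbered 1 without proestrus library 1, 0 without any of the other 3 estrus and proestrus libraries, 0 without either metestrus library, 19 without either diestrus library, 0 with limma-voom and 20 with DESeq2. The mitosis fallers numbered 0 without any single estrus or proestrus library, 1 without either metestrus library, 33 without either diestrus library, 3 with limma-voom, 22 with only the 4 libraries of the pair and 32 with DESeq2 or with no filter on low counts. In diestrus Mad2l1 had 10.8 and 30.0 CPM. Of 23 genes of the G1 phase 3 rose and 4 fell, counts that were no more than 1 in either direction without an estrus or proestrus library, 3 and 1 without either metestrus library, and 4 and 9 without either diestrus library. Cdkn1c, the inhibitor p57, had 29.4 and 45.9 CPM in estrus and 7.13 and 8.49 CPM in proestrus (2.27 ± 0.37, adjusted p = 0.0142), and Ccnd3, cyclin D3, had 72.5 and 75.0 CPM in estrus and 143 and 135 CPM in proestrus (-0.91 ± 0.11, adjusted p = 0.00684). The Cdkn1c call ended without either proestrus library or estrus library 2 (0.0737 to 0.0847), and the Ccnd3 call without estrus library 1 (0.0591) or 2 (0.0541).

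Of 23 prostaglandin genes 5 rose and 4 fell, beside 8.12% and 6.94% of all genes tested. Leaving out either proestrus library or estrus library 1 gave 1 riser and 1 faller, and leaving out estrus library 2 gave 2 risers and 0 fallers. The counts were 4 and 1 when a metestrus library was left out and 9 and 6 when a diestrus library was. Hpgd, the enzyme that inactivates prostaglandins, had 93.2 and 108 CPM in estrus and 37.99 and 45.4 CPM in proestrus (1.27 ± 0.14, adjusted p = 0.00502), a call that stood in every fit. Slco2a1, the carrier that takes prostaglandins up to that enzyme, had 24.7 and 23.6 CPM in estrus and 130 and 79.3 CPM in proestrus (-2.11 ± 0.25, adjusted p = 0.00593), and ended without estrus library 2 (0.0541). Ptger2, a receptor of prostaglandin E2, had 4.20 and 4.39 CPM in estrus and 1.38 and 1.49 CPM in proestrus (1.58 ± 0.23, adjusted p = 0.0109), and ended without any estrus or proestrus library (0.0595 to 0.0692).

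Marker lists of cell types moved as follows. Of 15 macrophage markers 8 rose and none fell, and of 12 dendritic cell markers 8 rose and none fell, beside 8.12% of all genes tested that rose. The macrophage count was 2 without proestrus library 2 or estrus library 2 and 4 without estrus library 1, and the dendritic count was 1 without either proestrus library, 5 without estrus library 1 or either metestrus library, and 3 without estrus library 2. The 12 neutrophil markers summed to 11600 and 10280 CPM in estrus and 5266 and 2588 CPM in proestrus, a sum that includes the epithelial gene Ltf, with 1 of 8 tested genes higher and 1 lower. The 15 markers of luminal epithelium summed to 21440 and 19260 CPM in estrus and 17270 and 10530 CPM in proestrus. The 15 of stroma summed to 14960 and 10070 CPM in estrus and 22000 and 26170 CPM in proestrus. The 15 of endothelium summed to 916 and 937 CPM in estrus and 985 and 1118 CPM in proestrus. A sum is weighted to its most abundant members. The median log2 fold changes were -0.11 for luminal epithelium, 0.1 for stroma and 0.06 for endothelium, each opposite in direction to the sum. No smooth muscle gene of 16 passed the test, but 4 rose with only the 4 libraries of the pair, 5 without either diestrus library, and 1 with DESeq2 or the replicate block. Of 8 pericyte markers 3 rose, by 0.97 for Abcc9, 1.06 for Kcnj8 and 0.95 for Mcam. These calls ended without most estrus and proestrus libraries: Abcc9 without proestrus library 1 or either estrus library (adjusted p = 0.0574 to 0.0915), Kcnj8 without any of the 4 (0.0660 to 0.0890), and Mcam without any of the 4 or either metestrus library (0.0637 to 0.152). In the other lists, 1 gene rose and 1 fell of 15 for luminal epithelium, 1 rose of 12 for glandular epithelium, 2 rose and 4 fell of 15 for stroma, 1 fell of 15 for endothelium and 1 rose of 8 for mesothelium. Without any single estrus or proestrus library these lists had no more than 1 call in either direction. The liver list had 3 risers of 16. Of 8 tested genes of vaginal or cervical epithelium 4 fell, namely Krt13, Krt5, Krt14 and Trp63, beside 6.94% of all genes tested. The liver risers numbered 0 without either estrus library, 1 without either metestrus library, 12 without proestrus library 1, 4 without proestrus library 2, 6 or 7 without a diestrus library, 11 with no filter, 5 with only the 4 libraries of the pair and 13 with limma-voom. The fallers of vaginal or cervical epithelium numbered 0 without proestrus library 2 or either estrus library, 1 without proestrus library 1 or either metestrus library, and 2 with the replicate block. The Krt13 call ended without proestrus library 2 or either estrus library (adjusted p = 0.0784 to 0.110), and those of Krt5 and Krt14 without any estrus, proestrus or metestrus library (0.0585 to 0.156). Single genes rose in the lists of T and NK cells, of B and plasma cells, of adipocytes and of red cells, and no gene passed the test for eosinophils, mast cells or Schwann cells, whose medians were 1.41, 1.36 and 0.39. Other settings did call members: 1 riser for eosinophils with DESeq2 and 2 with the replicate block, 2 for mast cells with only the 4 libraries of the pair and 3 without either diestrus library, and 1 riser and 1 faller for Schwann cells with the replicate block. The 9 genes of the oviduct list summed to 354 and 440 CPM in estrus and 611 and 651 CPM in proestrus, with Wt1 higher, Tubb4b lower and Ccdc153 at 0 in both stages. The 12 genes of the ovary list summed to 38.7 and 37.1 CPM in estrus and 46.5 and 57.0 CPM in proestrus, with Foxl2 lower and Cyp19a1, Fshr and Oosp1 at 0 in both stages. The Foxl2 call (adjusted p = 0.0468) ended without any estrus, proestrus or metestrus library (0.0727 to 0.219) and with limma-voom (0.0580). Wt1 was lost without proestrus library 1 or 2 or estrus library 2, and Tubb4b without estrus library 1 or 2. The part of these cell types in the steps of single genes was not tested.

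**Figure D5:**
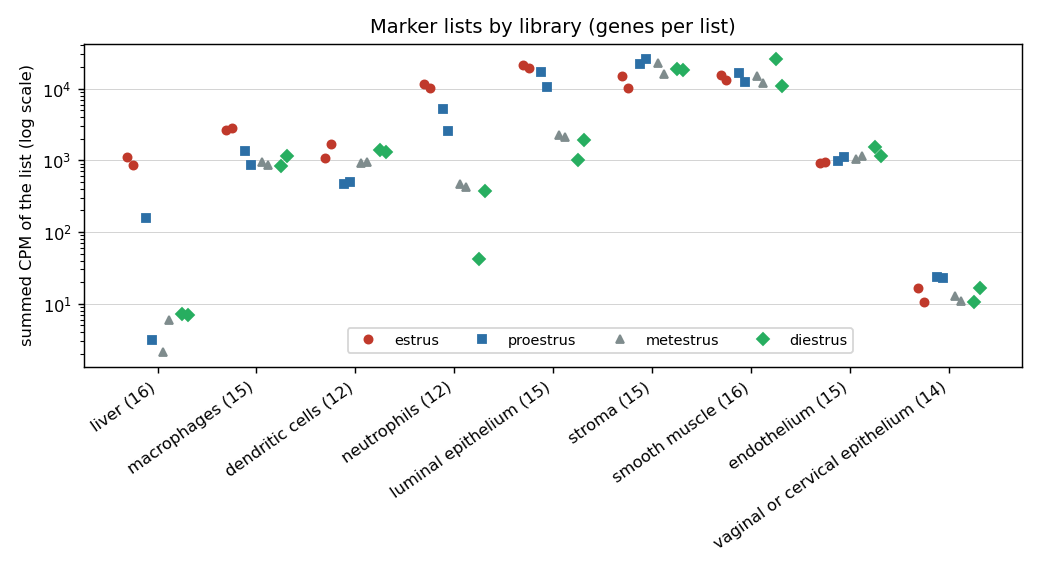
Summed level (CPM, log scale) of marker lists in each library, estrus as red circles, proestrus as blue squares, metestrus as grey triangles and diestrus as green diamonds. The liver list lies at 1126 and 869 CPM in estrus, 159 and 3.08 CPM in proestrus and no more than 7.20 CPM elsewhere, while smooth muscle and endothelium lie close together in estrus and proestrus.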

How the data were processed

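RNA of the uterus was sequenced in 8 libraries, 2 per stage. The authors deposited raw counts per gene. All are whole numbers, and the library totals differ (17863546 to 21896786). Among the tools in the submitters' processing notes are STAR, featureCounts and Subread, with the mouse build GRCm38 (mm10). Tool versions and strand setting: not given in the sources used here; overlapping and antisense genes may share counts.

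Of 52308 identifiers 52058 were found in GENCODE M21, which gave symbols and coordinates. The filter of edgeR (filterByExpr by stage) left 18114 genes. Counts were scaled by TMM (0.8975 to 1.111) and fitted with edgeR 4.0.16 in R 4.3.3 by quasi-likelihood, with 1 coefficient per stage over all 8 libraries. Residual degrees of freedom were 4 and prior ones 2.698, and the common biological variation was 0.2501. F tests were two-sided, with Benjamini-Hochberg adjustment over all genes tested. The SE is the log2 fold change divided by the square root of F.

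On simulated data of this comparison with 17679 genes, 89 of 100 genes changed 4-fold and 10 of 100 changed 2-fold were recovered, with 0 false calls.

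Genes were assigned to 7 classes by symbol and to 35 lists with 582 genes. Named genes were the 5 largest rises and falls per class among genes called in all fits, with at least 5 CPM on average in their high stage and libraries that do not overlap, and up to 3 called members of each list with the smallest p; not all of them are reported here. Members, classes and lists were chosen with earlier results of these data known. Alternatives were DESeq2 1.42.0, limma-voom (limma 3.58.1), DESeq2 size factors, other filters, 4 libraries only, a replicate block and each library left out; a stage then left with 1 library is assumed to vary like the others. Promoters were from RefSeq (GRCm38.p6), with a record for 12374 of the genes tested.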

Additional observations from a re-analysis of the deposited data

How the results depend on the processing

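With all libraries, 1470 genes were higher and 1257 lower in estrus. DESeq2 called 1727 and 1865, limma-voom 1532 and 1222, DESeq2 size factors in edgeR 1434 and 1298, no filter 1650 and 1476, a filter at 1 CPM in 2 libraries 1463 and 1226, and only the 4 libraries of the pair 1843 and 1606. With each library left out in turn the range was 215 to 2342 higher and 154 to 2371 lower. Pairing of libraries by replicate number was judged only by the correlation of same-numbered deviations. That correlation was 0.124 between estrus and proestrus and -0.0926 to 0.145 over all pairs of stages. Taken over all genes, it cannot show a pairing confined to some of them. A replicate block gave 1515 higher and 1490 lower. Over the named genes and all alternatives, 340 values lost the call, 16 gained it, and 0 values of genes called with all libraries reversed. The other 2222 values were counted as unchanged. In that count the direction was not followed for named genes not called with all libraries. In the simulation 10 of 100 genes changed 2-fold were recovered, so with 2 libraries a stage such changes may be missed. The simulation gave every gene the same spread and changed fewer genes than were called here. Its share of recovered genes need not hold for these data.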
